A study of Mus musculus with 2 samples.

Results

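The testis-specific serine kinases are a small family of protein kinases made almost only in male germ cells. The 6 genes described here, Tssk1, Tssk2, Tssk3, Tssk4, Tssk5 and Tssk6, were chosen by name from the 43346 genes quantified, and all 6 were found in the gene tables of both libraries. The libraries hold polyA mRNA from the testis of 1 adult male mouse of the inbred strain C57BL/6J, 10 weeks old, and the labels name no treatment. They are technical replicates 1 and 2 of this animal, and replicate 2 was made later, in 2015. There is no second condition and no second animal, so each value describes these libraries, and every SD is over n = 2 technical libraries.

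TSSK proteins belong to the same branch of the kinase tree as the AMP-activated kinase, and their genes are switched on late in spermatogenesis, when haploid spermatids reshape into sperm. In mice, loss of Tssk1 together with Tssk2, of Tssk3, or of Tssk6 leaves males infertile. The kinases act with partners, among them the substrate TSKS, the co-chaperone TSACC and the chaperone HSP90.

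The coding sequences showed one close pair in the family. Below is the stretch of each coding sequence that runs into the catalytic loop and ends at the magnesium-binding motif. It is shown because it is common to all members and because it shows their differences in base composition. The capitals mark the arginine and aspartate codons of the catalytic loop and, at the end, the aspartate, phenylalanine and glycine codons of the magnesium-binding motif. The sequences are from GENCODE release M21 transcripts on GRCm38 (mm10), 5′ to 3′ on the coding strand.
Tssk1 (chr16:17894713-17894820, plus strand): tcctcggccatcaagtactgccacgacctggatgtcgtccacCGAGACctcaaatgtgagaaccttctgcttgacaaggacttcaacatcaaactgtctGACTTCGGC
Tssk2 (chr16:17899095-17899202, plus strand): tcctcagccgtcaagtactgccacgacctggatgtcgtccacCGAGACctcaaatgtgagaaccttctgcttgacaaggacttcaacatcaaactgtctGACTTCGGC
Tssk3 (chr4:129489419-129489523, minus strand): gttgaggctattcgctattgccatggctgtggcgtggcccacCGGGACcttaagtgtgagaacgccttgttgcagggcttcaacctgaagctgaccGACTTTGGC
Tssk4 (chr14:55651102-55651552, plus strand, across an intron): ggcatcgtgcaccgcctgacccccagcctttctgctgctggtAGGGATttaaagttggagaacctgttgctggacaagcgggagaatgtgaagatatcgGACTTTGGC
Tssk5 (chr15:76373183-76373684, minus strand, across an intron): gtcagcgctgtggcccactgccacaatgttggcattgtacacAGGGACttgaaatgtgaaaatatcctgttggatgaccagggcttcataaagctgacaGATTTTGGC
Tssk6 (chr8:69902665-69902775, plus strand): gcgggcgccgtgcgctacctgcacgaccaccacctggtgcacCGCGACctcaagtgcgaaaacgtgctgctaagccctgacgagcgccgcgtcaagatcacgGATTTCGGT

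Tssk1 and Tssk2 differed at 2 of the 108 bases of this stretch. Whole coding sequences were aligned end to end, and identity was taken over the aligned bases, with gap bases left out. For this pair it was 83.5% (1039 aligned and 97 gap bases), and their transcripts shared an identical run of 113 bases. By this measure every other pair among the 15 lay lower, and the lowest was Tssk3 with Tssk6 at 63.3% (761 aligned and 107 gap bases). Gaps differed between pairs, up to 450 bases for Tssk2 with Tssk4, so the order of the lower pairs holds for this measure only. Apart from the Tssk1 and Tssk2 pair, the longest identical run between any members was 14 bases, between Tssk3 and Tssk5. Reads can therefore be shared mainly between Tssk1 and Tssk2, and the deposited posterior SD of their counts was 0.48 reads in replicate 1 and 1.33 reads in replicate 2 for each gene. For the other 4 members that SD was 0 at the level of the gene.

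GC content set Tssk6 apart. Its stretch held 64.9% G or C, its coding sequence 63.7%, and the third codon positions 83.2%. In the other 5 members the coding sequence held from 52.5% (Tssk3) to 54.96% (Tssk5), and the third positions from 62.5% (Tssk3) to 71.3% (Tssk2). Over the whole transcript Tssk6 held 64.8%, above 99.5% of the genes with enough reads to compare, and the other members held 52.4% to 54.8%.

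The members also differ in how their genes are built. Tssk1 (ENSMUSG00000041566.3, chromosome 16, 17894223 to 17897922), Tssk2 (ENSMUSG00000045521.6, chromosome 16, 17898637 to 17900024) and Tssk6 (ENSMUSG00000047654.6, chromosome 8, 69902184 to 69903518), all on the plus strand, have 1 exon each. Tssk1 and Tssk2 lie 715 bases apart in the same orientation. Tssk3 (ENSMUSG00000000411.7, chromosome 4, 129489014 to 129491022, minus strand) has 2 exons, and the main transcript of Tssk4 (ENSMUSG00000007591.10, chromosome 14, 55650184 to 55652539, plus strand) has 4. Tssk5 (ENSMUSG00000060794.6, chromosome 15, 76371952 to 76374938, minus strand) has 8. The coding sequences, with the stop codon, run from 807 bases (Tssk3) to 1119 bases (Tssk5). Tssk1 carries by far the longest untranslated part, since its 3700 base transcript holds 1098 coding bases.

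**Figure D1:**
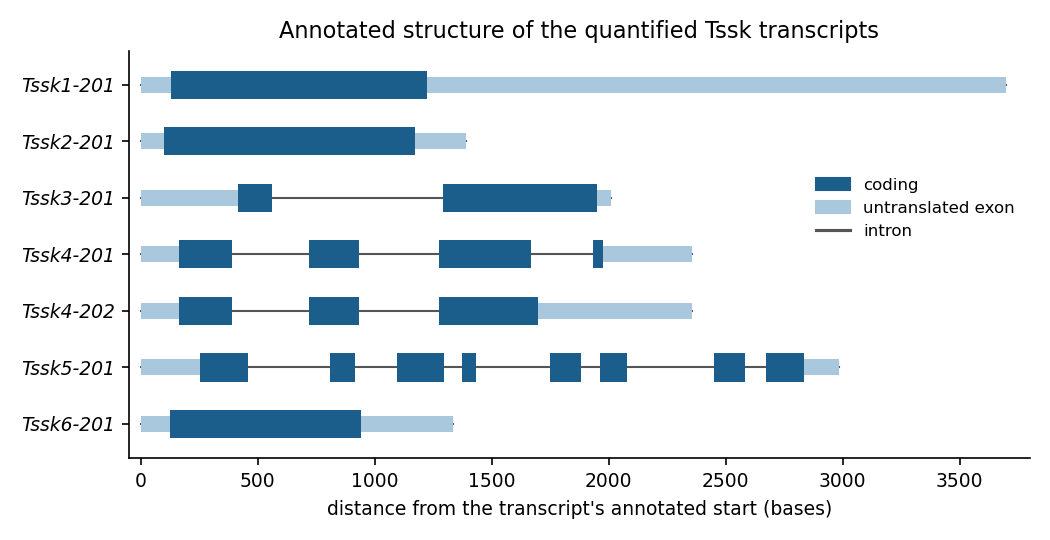
Annotated exons of the 7 Tssk transcripts in the deposited tables, drawn to scale from each transcript's start, with distance in bases on the horizontal axis; dark blocks are coding, light blocks untranslated and lines introns. Tssk1, Tssk2 and Tssk6 have 1 exon each, and Tssk1 has a long untranslated end.

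Levels are given in TPM, reads scaled for effective transcript length and library total, so that genes of different length can be compared. They are not scaled for GC content, with which the differences between these libraries moved (described below). Comparisons between members within a library carry that limit. Tssk2, which acts with Tssk1 in spermatids, was the highest member in both libraries, at 59.2 TPM in replicate 1 and 606 TPM in replicate 2 (333 ± 387, SD). Its level lay above 88.4% of protein-coding genes in replicate 1 and above 99.04% in replicate 2. Tssk1 reached 10.95 and 135 TPM (73.03 ± 87.8, SD). Tssk2 thus stood 5.41 times above its neighbour in replicate 1 and 4.49 times in replicate 2, and the deposited TPM intervals of the pair did not overlap in either library. By reads the gap was smaller, with 1542 and 10026 expected counts for Tssk2 against 834 and 6513 for the longer Tssk1.

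Tssk3 stood at 59.2 TPM in replicate 1 and 239.7 TPM in replicate 2 (149 ± 128, SD). In replicate 1 its interval (53.8 to 59.7 TPM) overlapped that of Tssk2 (53.9 to 59.6 TPM), and in replicate 2 Tssk2 was higher. Tssk4 stood at 28.95 and 117 TPM (72.8 ± 62.1, SD). Tssk5 was low in both libraries, at 1.18 and 18.0 TPM (9.59 ± 11.9, SD), from 34 and 329 reads. The intervals of Tssk5 lay below those of Tssk1, Tssk2, Tssk3 and Tssk4 in both libraries.

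Tssk6 had the widest gap between the libraries. This kinase, also called SSTK, is needed for the compaction of sperm chromatin. It stood at 0.16 TPM in replicate 1, from 4 reads, and at 287 TPM in replicate 2, from 4540 reads (144 ± 203, SD). It was the lowest of the 6 in replicate 1 and the next highest after Tssk2 in replicate 2. In percentiles of protein-coding genes it moved from 28.1 to 97.1.

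The limit for detection was set at 1 TPM in each library, which 54.6% of protein-coding genes and 31.8% of all genes reached. 5 of the 6 members reached it, all but Tssk6. In replicate 1 the interval of Tssk5 (0.80 to 1.56 TPM) spanned the limit. Without replicate 1 all 6 were detected. Summed over the family, the level was 160 TPM in replicate 1 and 1403 TPM in replicate 2, or 0.016% and 0.14% of all TPM. Tssk2 made up 37.1% and 43.2% of that sum. Tssk6 made up 0.10% and 20.5%. The median protein-coding gene stood at 1.89 and 4.6 TPM.

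The order of the members by mean TPM was Tssk2, Tssk3, Tssk6, Tssk1, Tssk4 and Tssk5. Of the 5 neighbouring pairs in this order, only Tssk4 over Tssk5 was separated the same way in both libraries. Tssk3 lay above Tssk6 in replicate 1 and below it in replicate 2. Tssk1 lay below Tssk4 in replicate 1 and above it in replicate 2. Over all 15 pairs, 9 had the same order in both libraries with no overlap of intervals, 5 reversed, and Tssk2 with Tssk3 overlapped in replicate 1. Of the 5 reversed pairs 4 involved Tssk6. The intervals are those the authors deposited for the posterior TPM. They cover estimation error within a library, not the spread between libraries, and belong to the posterior mean, so a TPM value can lie outside its interval. In replicate 2 the TPM of every member but Tssk5 lay above its interval, as for Tssk2 (606 TPM, interval 558 to 580).

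**Figure D2:**
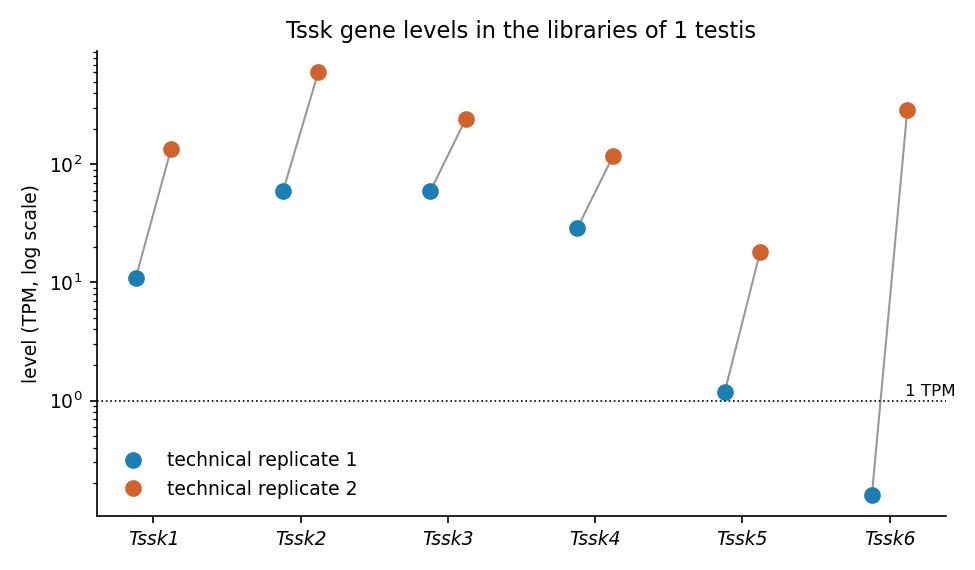
Level of each Tssk gene in TPM (log axis) in technical replicates 1 and 2 of the same testis, with a grey line joining the libraries and a dotted line at 1 TPM. All 6 genes sit higher in replicate 2, and the gap is widest for Tssk6 (0.16 and 287 TPM).

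The libraries were then compared gene by gene, as the ratio of expected counts in replicate 2 over replicate 1 after scaling the library sizes. Among the 18589 genes that averaged at least 10 counts, 56.6% were at least 2-fold apart, 32.3% higher in replicate 2 and 24.3% lower. Of the genes that far apart 57.1% were the higher ones, and 69.6% when library sizes were plain totals. All 6 members were at least 2-fold higher in replicate 2. At a limit of 4-fold, which 20.9% of the genes reached in that direction, 4 members were higher, namely Tssk1, Tssk2, Tssk5 and Tssk6. The median log2 ratio of all 6 members was 3.17, against -0.0037 over all of these genes. The ratio compares these 2 libraries and has no replicate check, so no test was made. Its 95% intervals are exact (Clopper-Pearson) and cover counting error only.

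Tssk3 and Tssk4 had the smallest ratios, 3.26 (interval 3.06 to 3.47) and 3.25 (2.99 to 3.53). Tssk2 was 8.21 times higher in replicate 2 (7.79 to 8.67) and Tssk1 9.86 times (9.18 to 10.6). The intervals of the tandem pair did not overlap. Tssk5 gave 12.1 (8.57 to 17.96). Tssk6 was 1275 times higher in replicate 2, with an interval of 560 to 5265 that reflects its 4 reads in replicate 1. 15 genes, Tssk6 included, had a ratio as high as that of Tssk6.

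GC content moved with these ratios. Each gene was set beside the median of genes of similar GC content, in 100 bins of equal gene number. In the bin of Tssk6 (62.7% to 74.2% GC, 185 genes) the median log2 ratio was 5.22, and 94.1% of the genes were at least 2-fold apart between the libraries. Tssk6 itself had a log2 ratio of 10.3, and 9 genes of the bin, itself included, were as high. Tssk3 had a log2 ratio of 1.70, equal to its bin median of 1.70. Tssk4 lay 0.47 above its bin median, Tssk2 1.34, Tssk5 1.43 and Tssk1 2.25. In the bin of Tssk1 (52.4% to 52.5% GC) 3 of 184 genes, itself included, had a ratio as high as Tssk1, whose log2 ratio was 3.30 where the bin median was 1.05. Relative to genes of similar GC content, 4 of the 6 members remained at least 2-fold higher in replicate 2, namely Tssk1, Tssk2, Tssk5 and Tssk6, where 12.4% of all genes with a known GC content were. The part of GC content in the ratios of single members was not tested.

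**Figure D3:**
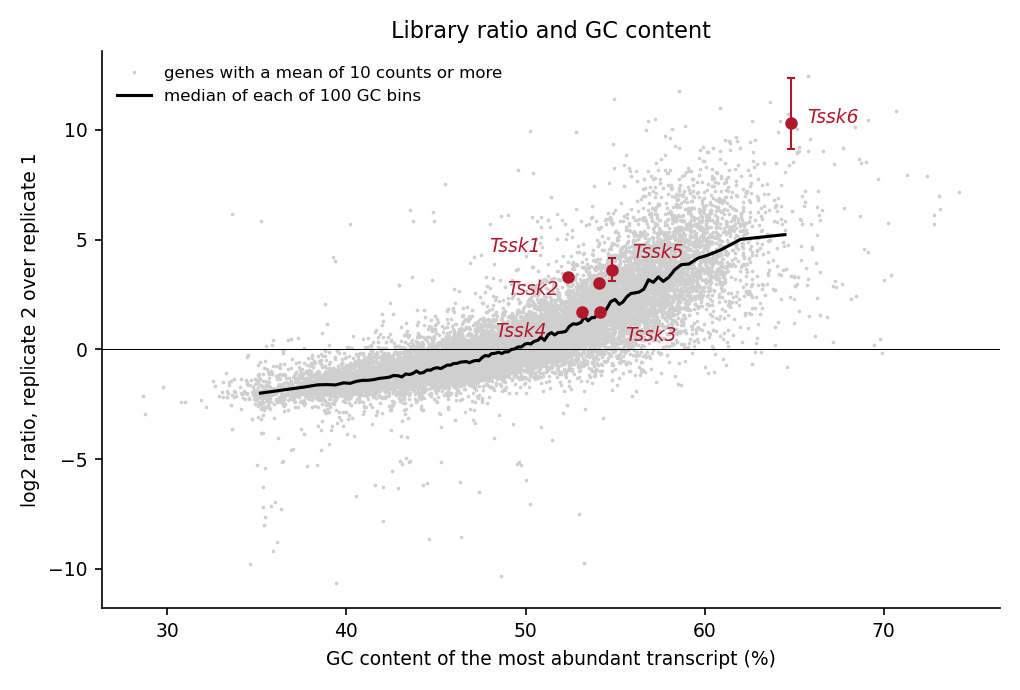
Log2 ratio of replicate 2 over replicate 1 against the GC content (%) of each gene's most abundant transcript, for genes averaging at least 10 counts (grey) and the 6 Tssk genes (red, with 95% counting intervals); the black line joins the medians of 100 GC bins. Tssk3 lies on the line, and Tssk1 (2.25) and Tssk6 (5.09) lie farthest above it on the log2 scale.

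Cell type markers moved between the libraries as well. The summed level of 5 elongating spermatid markers was 8368 TPM in replicate 1 and 48458 TPM in replicate 2. Of these 4 were at least 2-fold higher in replicate 2 (median log2 ratio 2.97), where 32.3% of all genes were. The 5 round spermatid markers summed to 2241 and 1621.5 TPM (median log2 ratio -0.84) and the 5 spermatocyte markers to 1857 and 756 TPM (-1.93). The median GC content of these lists was 54.4%, 45.6% and 37.4%, in that order. Relative to genes of similar GC content their median log2 ratios were 0.35, -0.12 and -0.22. Among the elongating spermatid markers, Prm2 (4.24) and Tnp1 (2.98) stayed at least 2-fold above such genes. Prm1 (-0.15), Smcp (-0.13) and Tnp2 (0.35) did not. Spermatogonial markers summed to 53.6 and 107 TPM with a median log2 ratio of -0.39, and Uchl1 alone (7.16 and 70.8 TPM) differed by more than the sum did. Leydig cell markers summed to 425 and 2072 TPM with a median log2 ratio of -0.12, and there Insl3 (83.2 and 1630.3 TPM, 63.6% GC) made up most of the difference. Sertoli cell markers summed to 903 and 1133 TPM (median log2 ratio 1.51, and -0.37 relative to genes of similar GC content). Epididymis markers summed to 55.6 and 22.1 TPM, with Lcn5 and Lcn8 at 0 reads in both libraries. Fat markers summed to 12.95 and 17.8 TPM, and red blood cell markers to 27.2 and 328 TPM. The red blood cell list had a median log2 ratio of 3.87, and of 3.20 relative to genes of similar GC content. Both libraries are technical replicates of 1 testis, so these are shifts between libraries, not between animals. In whole tissue, fewer cells of a type, less RNA per cell and differences in library making cannot be told apart. The part of these shifts in the Tssk ratios was not tested.

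Among the members, only Tssk4 had more than 1 transcript in the deposited tables. The main transcript (ENSMUST00000007735.8, 1420 bases, 4 exons) held 86.9% of the gene's level in replicate 1 and 85.4% in replicate 2, at 25.2 and 99.7 TPM. The other (ENSMUST00000164809.3), whose exon 3 runs on through the last intron to the end of the gene, held 13.1% and 14.6%, at 3.79 and 17.1 TPM. The split was thus similar in libraries whose Tssk4 levels differed 4.03-fold in TPM. The posterior SD of the counts was 22.2 reads in replicate 1 and 37.6 in replicate 2, where the main and the other transcript had 673 and 123 reads in replicate 1 and 1693 and 353 in replicate 2.

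Exon 2 of Tssk4 ends at position 55651115, and exon 3 of both these transcripts starts at 55651459. In 2 further transcripts, ENSMUST00000226591 and ENSMUST00000228041, annotated in release M21 and outside the quantified set, it starts 30 bases later, at 55651489. In the main transcript these 30 bases begin 2 bases after the histidine codon (cac), within the next codon, and end with the first 2 capitals. They keep the reading frame, as a comparison with ENSMUST00000226591 over the same stretch shows. The capitals mark the same codons as above.
ENSMUST00000007735.8: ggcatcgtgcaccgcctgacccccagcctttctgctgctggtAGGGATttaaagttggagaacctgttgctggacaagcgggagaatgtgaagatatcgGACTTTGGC
ENSMUST00000226591: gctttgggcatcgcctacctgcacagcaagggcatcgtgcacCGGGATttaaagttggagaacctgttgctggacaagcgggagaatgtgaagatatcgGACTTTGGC
In ENSMUST00000226591 the histidine codon directly precedes the arginine codon, as it does in the other 5 members. Reads of a transcript with the later start of exon 3 had no transcript of their own in the deposited tables, and their share of the Tssk4 reads was not analysed here. Of the 7 Tssk4 transcripts in release M21, 2 were in the deposited tables.

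The genes that adjoin the Tssk genes showed ratios of their own. Tssk1 lies wholly within Dgcr2, on the opposite strand, and 63 bases of its exon overlap Dgcr2 exons. Dgcr2 had 591 and 3379 reads, a ratio of 7.22. On the far side of Tssk2, Ess2 had 107 and 738 reads, a ratio of 8.68. The 4 genes of this stretch of chromosome 16, with GC contents of 52.4% to 56.2%, thus had ratios from 7.22 to 9.86. Among all genes averaging at least 10 counts, 20.9% were at least 4-fold and 12.9% at least 8-fold higher in replicate 2. Relative to genes of similar GC content the log2 ratios of Tssk1 and Tssk2 differed (2.25 and 1.34), and those of Dgcr2 and Ess2 are not given here. Gm20518, which overlaps Dgcr2, had 13.7 and 92.5 reads (ratio 8.06).

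Tssk6 overlaps Ndufa13, a subunit gene of respiratory complex I on the opposite strand, and their exons share 375 bases. Whether the counting used strand is not given in the sources used here. Ndufa13 (60.4% GC) had 5 and 1302 reads, a ratio of 299. The deposited counts of both genes were whole numbers in both libraries, so they show no read split between them. Gatad2a, on the other side of Tssk6 (57.2% GC), had 495 and 1888 reads, a ratio of 4.82. Yjefn3, which also overlaps Tssk6, had 0 and 1 reads, and Cilp2, to the left, had 0 and 13.

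Near Tssk3, Fam229a starts 168 bases away on the other strand, with a GC content of 65.8%. It had 0 reads in replicate 1 and 2205 in replicate 2, which is at least 929-fold higher when a count of 0 is taken as up to 3 reads in that library. Bsdc1, on the other side of Tssk3 (52.6% GC), had 414 and 1537 reads, a ratio of 4.69, where Tssk3 had 3.26. Hgh1 and Mroh1, on either side of Tssk5 (both 58.8% GC), had ratios of 17.4 (37 and 516 reads) and 39.1 (88 and 2738 reads). The genes nearest to Tssk4, Gm49747 and Gm49299, had no match in the gene tables used here.

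**Figure D4:**
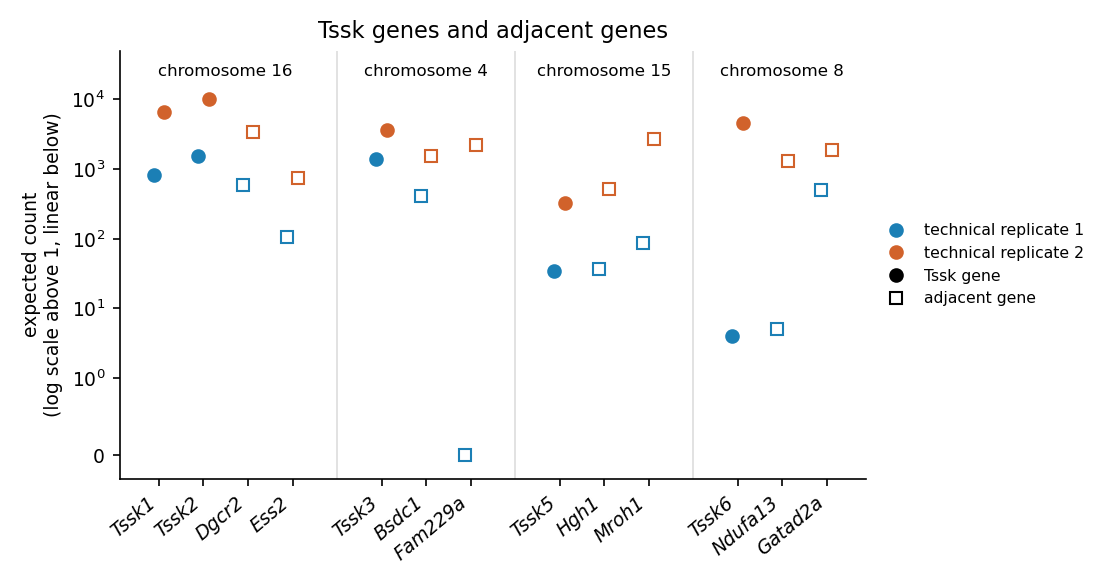
Expected counts (log scale above 1, linear below) of Tssk genes (filled circles) and adjacent genes (open squares) in technical replicates 1 (blue) and 2 (orange), grouped by chromosome. Tssk6 and the overlapping Ndufa13 had 4 and 5 reads in replicate 1 and 4540 and 1302 in replicate 2, and Fam229a beside Tssk3 had 0 and 2205.

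RefSeq promoter sequences on GRCm38.p6 were given for 5 members, all but Tssk5, each from 250 bases before to 50 after a transcription start. The 100 bases before the start are shown for Tssk1 and Tssk2, the tandem pair. Capitals mark the octamer TGACTTCA and its reverse complement TGAAGTCA, which were picked after the sequences had been seen.
Tssk1 (chr16:17894103-17894202, plus strand): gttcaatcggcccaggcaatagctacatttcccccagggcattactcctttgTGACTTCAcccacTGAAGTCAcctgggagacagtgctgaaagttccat
Tssk2 (chr16:17898537-17898636, plus strand): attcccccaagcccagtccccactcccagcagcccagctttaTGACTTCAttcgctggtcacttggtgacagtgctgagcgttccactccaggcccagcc
The 2 windows were 70.1% identical over 87 aligned bases. On either strand, the octamer occurred in 1.52% of the 32851 promoters of the same length, and among the Tssk genes in those of Tssk1 and Tssk2. The palindromic cAMP response element TGACGTCA occurred in 1.79% of all promoters and in none of the 5 Tssk promoters. Its core TGACG occurred in 20.8% of all promoters and, among the 5, in that of Tssk6. The TATA motif TATAAA occurred in 13.6% and in none of the 5. These are matches of letters in a window, not sites of binding.

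The genes listed as partners and substrates of the kinases were all detected (13 of 13), where 54.6% of protein-coding genes and 31.8% of all genes were. Their roles toward the TSSK proteins were not tested here. Their median levels were 236 TPM in replicate 1 and 256 TPM in replicate 2, and 4 of the 13 were at least 2-fold higher and 2 at least 2-fold lower in replicate 2, where 32.3% and 24.3% of all genes were. The list's median log2 ratio was 0.098, against 3.17 for the kinases. The 2 lists differ in median GC content (50.3% and 54.1%). Relative to genes of similar GC content their median log2 ratios were -0.15 and 1.38. By that measure the 4 higher partner genes had 0.19 (Tsks), 0.92 (Stk11), 0.44 (Odf2) and -2.40 (H2afx). The 2 lower ones had -0.15 (Hsp90aa1) and 0.17 (Creb1).

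Tsks, which encodes the testis-specific kinase substrate of spermatid centrioles, stood at 8.45 and 384 TPM, and its log2 ratio of 5.19 went with a GC content of 61.7%. Tsacc, the co-chaperone that TSSK6 needs for activity, stood at 275 and 474 TPM (log2 ratio 0.49). Beside these levels Tssk6 had 0.16 TPM, from 4 reads, in replicate 1 and 287 TPM in replicate 2. The libraries come from the same testis, so neither pair of values fixes the relation of these genes in it. The chaperone genes Hsp90aa1, Hsp90ab1 and Hspa8 stood at 3134 and 1214 TPM, 327 and 245 TPM, and 201.4 and 256 TPM. Of these only Hsp90aa1 was at least 2-fold lower in replicate 2, with a log2 ratio of -1.42.

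Genes of other kinases and of a phosphatase were on the list as well. Pdpk1, which encodes a kinase that phosphorylates the activation loop of TSSK3, stood at 217 and 168 TPM. Stk11, the master kinase of the AMPK-related kinases, stood at 5.60 and 89.7 TPM (log2 ratio 4.09). The phosphatase gene Ppp1cc, whose testis form is found in sperm, reached 1522 and 1082 TPM.

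Of the substrates, Odf2 of the outer dense fibres of the tail reached 739 and 3352 TPM, a log2 ratio of 2.14. Spag16, an axoneme protein gene and TSSK2 substrate, stood at 236 and 151 TPM. The histone gene H2afx stood at 5.59 and 42.4 TPM (log2 ratio 2.60), with 62.3% GC. Relative to genes of similar GC content its log2 ratio was -2.40. The transcription factor genes Crem and Creb1 stood at 606 and 425 TPM and at 14.1 and 11.1 TPM, and by counts Creb1 was at least 2-fold lower in replicate 2 (log2 ratio -1.45).

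**Figure D5:**
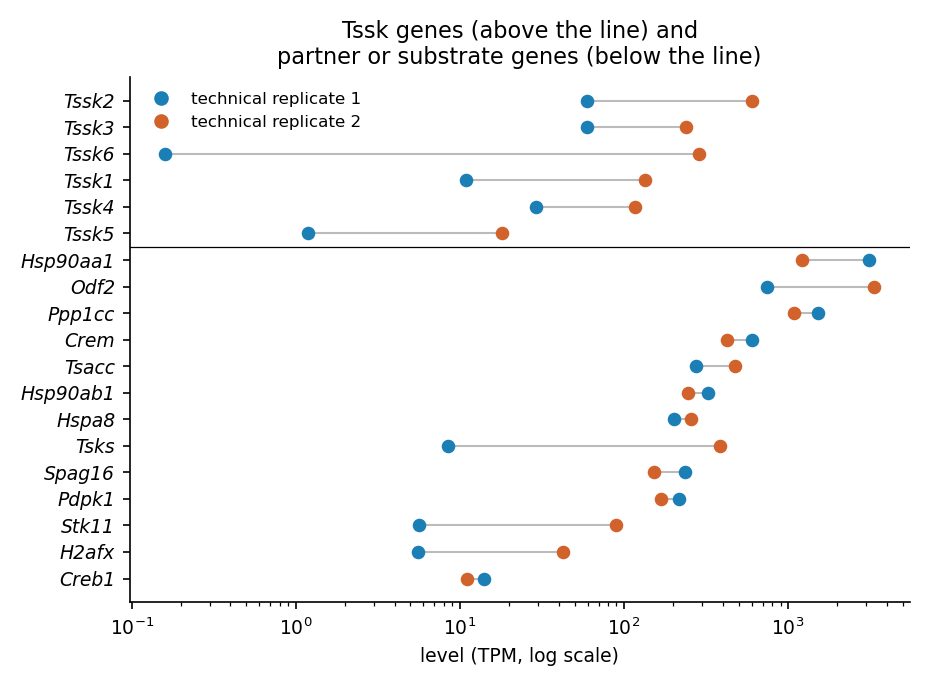
Levels in TPM (log axis) of the 6 Tssk genes above the line and the 13 partner or substrate genes below it, in technical replicates 1 (blue) and 2 (orange), each group ordered by mean TPM. The Tssk genes are all higher in replicate 2, whereas the partner genes lie on both sides, with Tsks (8.45 and 384 TPM) the widest apart among them.

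The relatives of the family in the AMPK-related branch were present at lower levels. Of 17 such genes 15 were detected, where 54.6% of protein-coding genes and 31.8% of all genes were. Their medians were 4.18 and 11.8 TPM, where the medians of the 6 Tssk genes were 19.95 and 187 TPM. By mean TPM the highest were Mark2 (35.7 and 67.2 TPM), Mark3 (23.8 and 24.2 TPM), Brsk2 (1.77 and 44.8 TPM) and Sik2 (21.5 and 24.5 TPM). These encode a microtubule affinity-regulating pair, a brain-selective polarity kinase and a salt-inducible kinase. Of the 17 genes 7 were at least 2-fold higher in replicate 2, near the 32.3% of all genes, and 0 were at least 2-fold lower (24.3% of all genes).

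Other kinases known from germ cells were detected for 15 of the 15 names that matched a gene, out of 17 listed. The share detected was 54.6% of protein-coding genes and 31.8% of all genes. The medians of the 15 genes were 53.4 and 59.3 TPM. The highest by mean TPM were Stk33 (488 and 256 TPM), Pbk (189 and 94.0 TPM), Plk4 of centriole duplication (156 and 59.3 TPM) and Nek2 of the centrosome (69.4 and 110 TPM). Of the 15 genes 4 were at least 2-fold higher and 5 at least 2-fold lower in replicate 2, near the same shares of all genes. In replicate 1 Stk33 lay above Tssk2 (59.2 TPM), and in replicate 2 it lay below Tssk2 (606 TPM).

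The protein-coding genes with the most similar pair of levels were found by the distance of log2(TPM + 1) over the 2 libraries, so each match rests on 2 values per gene from the same libraries. They were Psmf1 (61.2 and 610 TPM) and H1fnt (64.2 and 599 TPM) for Tssk2, at distances of 0.048 and 0.12. For Tssk1 they were Gm10638 (10.3 and 134 TPM) and Nkiras2 (10.1 and 129 TPM). Tssk3 was nearest to Polr1d (56.97 and 233 TPM) and Pcbp3 (61.7 and 246 TPM). Tssk4 was nearest to Bpifa3 (27.2 and 114 TPM) and Mfn2 (27.7 and 123 TPM), and Tssk5 to Ptcd1 (1.26 and 18.1 TPM) and Ten1 (1.18 and 18.8 TPM). Tssk6 had the most distant matches, Hist2h2aa2 (0.09 and 336 TPM) at 0.24 and Znrf4 (0.18 and 385 TPM) at 0.43.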

How the data were processed

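Per the labels, polyA mRNA of 1 mouse testis was sequenced in 2 technical libraries with a size range of 350 to 450 bases. Per the deposited notes, the authors quantified each library from alignments to the transcriptome on mm10 with annotation M4. Expected counts (estimated reads), TPM, FPKM and the percent share of each transcript in its gene are the values the authors deposited, with posterior means, SDs and TPM intervals of unstated level. The quantification program is not given in the sources used here. Expected counts summed to 31995377 and 20675551.

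Names and positions came from GENCODE M21 on the same assembly, matched by identifier without version (42462 of 43346 genes). Expected counts were rounded. TMM factors from edgeR 4.0.16 were 0.904 and 1.11, and 0.5 was added to each count for log2 ratios. With 1 library per technical replicate no test and no p-value was possible. A gene counted as called at a ratio of 2 or more, among genes averaging at least 10 counts. The computation of the ratio and its interval was checked on simulated counts that hold counting error only. That check does not bear on the spread between these libraries. GC content was taken from the M21 transcript with the highest level and was known for 99.0% of the compared genes. Coding sequences were aligned globally with biopython 1.88.

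The named genes are all members, their transcripts at 10% or more, the partner list, the 4 highest of each kinase list, adjacent genes and 2 nearest patterns per member. Members and lists were chosen with earlier results of these data known. Testk1 and Testk2 in the list of other germ cell kinases matched no gene. The octamer and the third-exon comparison of Tssk4 were chosen after values or sequences had been seen. Alternatives covered detection limits, units, scalings (totals, DESeq2 1.42.0 size factors, GC bins), added counts, filters and ratio limits.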

Additional observations from a re-analysis of the deposited data

How the results depend on the processing

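Over the 36 alternatives the members' log2 ratios ran from 0.0004 to 10.8. The lowest value is that of Tssk3 against genes of similar GC content, over which it had no excess, and Tssk4 lay 0.47 above such genes. The count of members at least 2-fold apart was 6 under TMM and 4 both against genes of similar GC content and at a ratio limit of 4. Over all genes, 10528 of 18589 were at least 2-fold apart. That count was 4070 of 18404 against genes of similar GC content and 4377 of 18589 at a ratio limit of 4. It was 15878 without a count filter and 6972 at a mean of 100 counts or more, filters that change the number of genes compared. With plain totals the median log2 ratio of all genes was 0.29, and 69.6% of the called genes were higher in replicate 2, against 57.1% under TMM. Of the AMPK-related kinase genes 15 were detected at 1 TPM and 5 at 10 TPM. Of the members 5 were detected in both libraries at 1 TPM, 4 at 10 TPM and 4 at 1 FPKM. The share of all genes detected is given here for 1 TPM only (31.8%), so the counts at 10 TPM and 1 FPKM have no background. By library, members detected ranged from 5 to 6 and the summed level from 160 to 1403 TPM, so the mean level of the family, 781 ± 879 TPM (SD, n = 2 technical libraries), stands for neither library. The main Tssk4 transcript held 86.1% of its gene by the deposited share and 83.6% by expected counts. Counting intervals were widest for Tssk6 and Tssk5, which had 4 and 34 reads in replicate 1, the library with the larger total. No paired analysis was possible because there is 1 group, and leaving out a library leaves no ratio.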
